A study of Mus musculus with 27 samples.

Results

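The 10 genes described here encode cyclins and inhibitors of cyclin-dependent kinases (CDKs), out of 55483 genes in the deposited count table. They are the D-type cyclins Ccnd1, Ccnd2 and Ccnd3, the E-type cyclins Ccne1 and Ccne2, the A- and B-type cyclins Ccna2 and Ccnb1, and the inhibitors Cdkn1a (p21), Cdkn1b (p27) and Cdkn2c (p18). The genes were chosen by name, with the knowledge that Ccnd1 and Ccnd3 had lower counts under TM7nox in these same libraries. The contrasts of TM7nox with the other treatments are therefore given for these genes as descriptions without a test. The cells were RAW264.7, a dividing mouse macrophage line transformed by Abelson virus. They were harvested after 6 h with DMSO, with LPS at 1 µg/ml and DMSO, or with LPS at 1 µg/ml and TM7nox at 10 µM. The group with LPS and DMSO is called LPS below. LPS is a bacterial lipopolysaccharide that activates macrophages, and TM7nox is a tanshinone mimic made to interfere with the binding of HuR to RNA. HuR, the product of Elavl1, binds U-rich and AU-rich stretches, mostly in 3′ untranslated regions (3′ UTRs). Each treatment has 4 libraries of total RNA, 4 of RNA immunoprecipitated with anti-HuR (RIP) and 1 of a control IgG precipitation, always replicate 3. The labels call the libraries replicas without saying that they came from separate cultures, so the tests measure the spread between these libraries, which may be technical.

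D-type cyclins bind CDK4 and CDK6 in response to growth factor signals and start the phosphorylation of the retinoblastoma protein, which frees E2F transcription factors. Cyclin E with CDK2 then drives entry into S phase, cyclin A acts in S phase and G2, and cyclin B with CDK1 drives mitosis. The proteins p21 and p27 inhibit cyclin-CDK complexes, and p18 binds CDK4 and CDK6 themselves. Colony-stimulating factor 1 induces D-type cyclins in macrophages, and LPS is known to stop the division of macrophages. Several cyclin and CDK inhibitor mRNAs have been reported as HuR targets in other cells.

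The RNA libraries held 2.73 to 28.3 M counts (M for 1000000), the RIP libraries 19.8 to 41.4 M and the IgG libraries 8.87 to 24.5 M. RNA DMSO replicate 1 was the shallowest. Levels are counts per M (CPM) on 1 scale over the 27 libraries. All 10 macrophage markers had a mean above 1 CPM in RNA of every treatment, with a summed level of 3658 to 7203 CPM. None of 12 markers of T, B and NK cells, fibroblasts, endothelium, epithelium, liver and eosinophils did, and their summed level was 0.101 to 2.73 CPM.

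**Figure D1:**
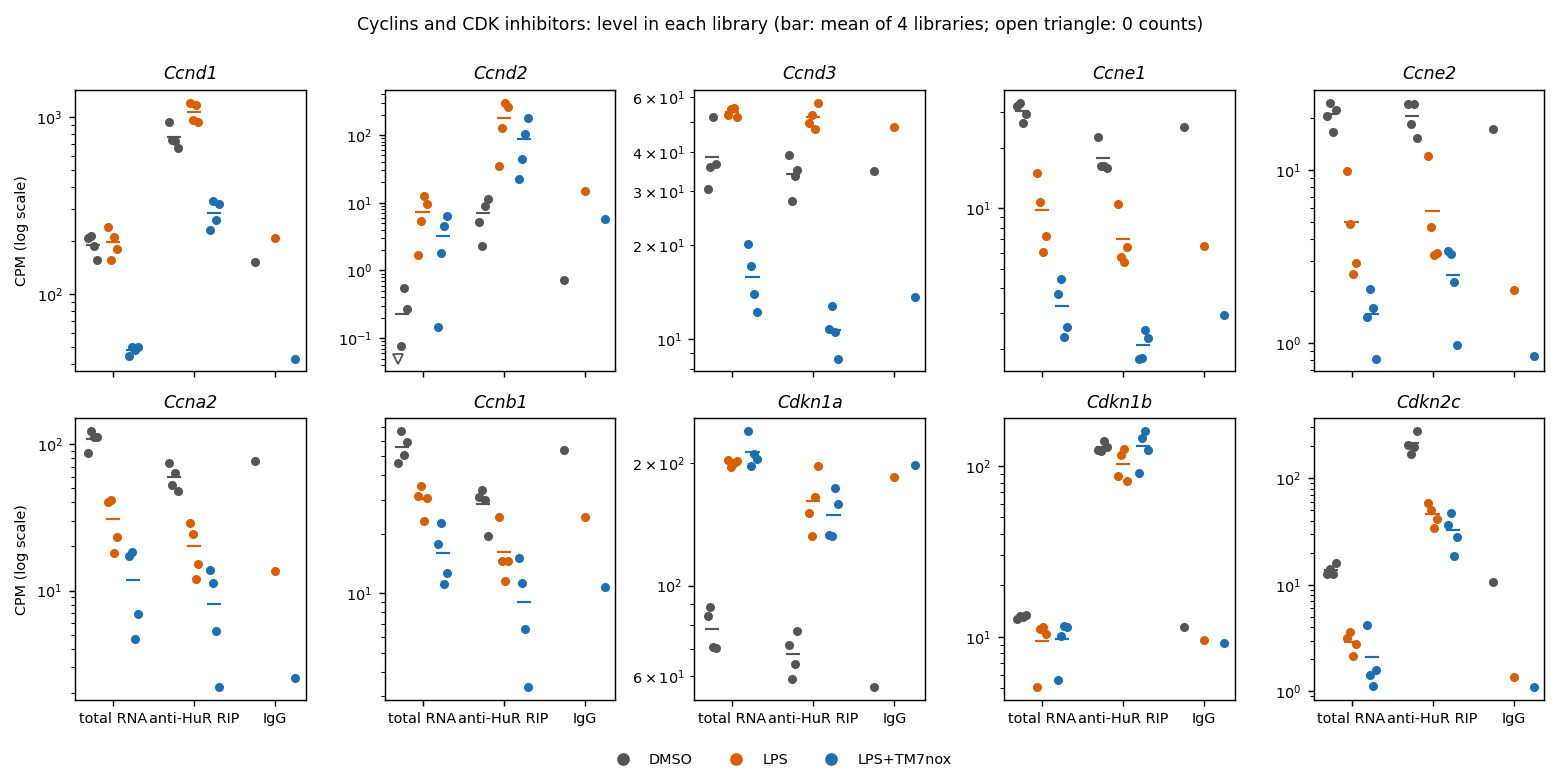
CPM of each gene (log axis) in total RNA, anti-HuR RIP and IgG libraries of DMSO, LPS and LPS+TM7nox; each point is 1 library and each bar the mean of 4. Ccnd1 in RNA lay at 155 to 240 CPM in DMSO and LPS and at 44.5 to 50.1 CPM in LPS+TM7nox, while Ccnd2, Cdkn1b and Cdkn2c stood far higher in RIP than in RNA or IgG of the same treatment.

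Per kilobase of annotated exons, taken as the union of all isoforms, Ccnd1 was the most abundant of the 10 in RNA from DMSO cells, at 39.7 ± 5.27 CPM per kb (SD, n = 4). Ccna2 followed at 26.4 ± 3.68 CPM per kb, and the ranges of these neighbours did not overlap. Ccnb1 and Cdkn1a were each at 13.0 CPM per kb, with overlapping libraries, and Ccne1 was at 8.39 CPM per kb. Ccnd3 at 4.17, Ccne2 at 3.72 and Cdkn1b at 2.87 CPM per kb came next. Ccnd3 overlapped Ccne2 in range, and Ccne2 overlapped Cdkn1b. Cdkn2c was at 2.17 CPM per kb, and Ccnd2 was last at 0.0239 CPM per kb. In LPS+TM7nox the order in RNA began with Cdkn1a at 35.2 ± 3.06 CPM per kb and Ccnd1 at 10.0 ± 0.539 CPM per kb, and these libraries did not overlap. Ccnd3 has the longest exon union but for Ccnd2, so an isoform shorter than the union would have a higher level per kb than given here.

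The first comparison asked how LPS changed these mRNAs. In total RNA, 2 of the 10 genes rose with LPS (Ccnd2 and Cdkn1a), 5 fell (Ccne1, Ccne2, Ccna2, Ccnb1 and Cdkn2c) and 3 were not called (Ccnd1, Ccnd3 and Cdkn1b), at an adjusted p (FDR) under 0.05 by edgeR's quasi-likelihood test. Among all 12369 genes tested, 20.2% were called higher and 21.7% lower. The median log2 fold change was -0.73 over the 10 genes and -0.04 over all genes. With the replicate number as a block 9 of the 10 were called, with replicates 1 and 2 alone 6, and with replicates 3 and 4 alone 7. The calls over all genes also moved, from 5190 to 1668 with replicates 1 and 2 alone and 7349 with replicates 3 and 4 alone. The LPS libraries also served as the reference for the fall of Ccnd1 and Ccnd3 on which the genes were chosen, so the LPS values of these 2 are not independent of that choice. In bulk RNA, fewer cells with an mRNA and less of it per cell cannot be told apart.

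Ccnd1 (ENSMUSG00000070348, chr7:144483668-144493662, minus strand, GRCm39) had the same level in RNA with and without LPS within the spread of its libraries. Its RNA libraries measured 207, 211, 186 and 156 CPM in DMSO and 240, 155, 210 and 179 CPM in LPS. The groups overlapped, and the log2 fold change was -0.01 (SE 0.151, FDR 0.961). In RIP the DMSO libraries measured 941, 740, 728 and 666 CPM and the LPS libraries 1203, 957, 1177 and 942 CPM. The lowest LPS library stood just above the highest DMSO library there, but the rise of 0.44 log2 units did not pass the test (SE 0.199, FDR 0.0831). The gene was called with the replicate number as a block (FDR 0.0395).

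Ccnd2 (ENSMUSG00000000184, chr6:127102125-127129156, minus strand) was nearly absent from DMSO cells and rose with LPS. In RNA its DMSO libraries measured 0, 0.0756, 0.557 and 0.266 CPM, from 0, 3, 17 and 8 counts. The library with 0 counts was the shallowest one, where 0 counts allow a level of up to 0.642 CPM (3 counts, counting error only). The LPS libraries measured 1.69, 5.45, 12.4 and 9.62 CPM. All of them exceeded every DMSO library, and replicates 1 and 2 were the lowest within LPS. The log2 fold change was 4.69 (SE 0.957, FDR 0.00122), a 25.9-fold rise fitted against 28 counts in the 4 DMSO libraries together. In RIP, where the gene was covered by 69 to 290 counts per DMSO library, the rise was 4.64 log2 units (SE 0.743, FDR 0.000109), from 5.18, 2.26, 9.04 and 11.4 CPM to 34.3, 125, 297 and 255 CPM. The annotated genes 9330179D12Rik, Gm43126 and Gm68045 overlap Ccnd2 on the other strand. Without DMSO replicate 3, which held 17 of the 28 counts, the value in RNA was 5.53, and with replicates 1 and 2 alone it was 5.70. Whether strand was used in the counting is not given in the sources used here.

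Ccnd3 (ENSMUSG00000034165, chr17:47815767-47910624, plus strand) measured 30.4, 35.7, 51.7 and 36.5 CPM in DMSO RNA and 52.5, 55.0, 55.3 and 51.7 CPM in LPS RNA. DMSO replicate 3 lay within the LPS range and the other DMSO libraries below it. The log2 fold change was 0.42 (SE 0.173, FDR 0.069). The gene was called with the replicate block (FDR 0.0448), with DESeq2 (FDR 0.0266), with RLE, another scaling of the library sizes (FDR 0.0385), with no count filter (FDR 0.0335) or only the groups compared (FDR 0.0241), and without DMSO replicate 3 (FDR 0.0145). In RIP it rose by 0.58 log2 units (SE 0.154, FDR 0.0064), from 27.9 to 39.2 CPM in DMSO to 47.4 to 57.5 CPM in LPS with no overlap. That call was lost with replicates 1 and 2 alone (FDR 0.0957) and with replicates 3 and 4 alone (FDR 0.070). Gm64599 and Gm64600 overlap Ccnd3 on its strand, and Bysl and Gm64596 on the other. The processed pseudogene Ccnd3-ps had at most 9 counts in any library.

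The E-type cyclins fell together in LPS. Ccne1 (ENSMUSG00000002068, chr7:37797404-37808264, minus strand) measured 32.1, 33.4, 26.6 and 29.6 CPM in DMSO RNA and 15.1, 10.8, 6.03 and 7.31 CPM in LPS RNA. It fell by 1.69 log2 units in RNA (SE 0.279, FDR 0.000233) and by 1.36 in RIP (SE 0.234, FDR 0.000208), without overlap in either. Ccne2 (ENSMUSG00000028212, chr4:11190303-11204947, plus strand) measured 20.5, 24.4, 16.5 and 22.2 CPM in DMSO RNA and 9.85, 4.89, 2.50 and 2.92 CPM in LPS RNA. It had log2 fold changes of -2.11 in RNA (SE 0.382, FDR 0.000497) and -1.81 in RIP (SE 0.379, FDR 0.00112). With replicates 3 and 4 alone Ccne2 was at -2.84 in RNA and -2.65 in RIP, and without RIP LPS replicate 1 it was at -2.50 in RIP. In RNA, replicates 1 and 2 of LPS held more of both mRNAs than replicates 3 and 4.

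Ccna2 (ENSMUSG00000027715, chr3:36619014-36626299, minus strand) had 86.7, 122, 111 and 111 CPM in DMSO RNA and 40.4, 41.2, 17.99 and 23.3 CPM in LPS RNA. All LPS libraries lay below all DMSO libraries, with replicates 3 and 4 again the lowest in LPS. The log2 fold change was -1.86 in RNA (SE 0.388, FDR 0.00145) and -1.58 in RIP (SE 0.383, FDR 0.00334). Ccnb1 (ENSMUSG00000041431, chr13:100915153-100923116, minus strand), the mitotic B-type cyclin, had the smallest of the 5 called falls. It measured 46.0, 66.9, 50.7 and 59.3 CPM in DMSO RNA and 31.5, 35.03, 23.4 and 30.6 CPM in LPS RNA. Its log2 fold change in RNA was -0.95 (SE 0.214, FDR 0.00256; FDR 0.0644 with replicates 1 and 2 alone). In RIP it was -0.84 (SE 0.333, FDR 0.051), and the gene was called there with DESeq2 (FDR 0.0321), RLE scaling (FDR 0.0449), no count filter (FDR 0.00121), only the groups compared (FDR 0.0167), replicates 3 and 4 alone (FDR 0.0148) and the replicate block (FDR 0.0013), without RIP LPS replicate 1 (FDR 0.0145) and without RIP DMSO replicate 4 (FDR 0.0308). The processed pseudogene Ccnb1-ps had up to 30 counts in a library.

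The 3 inhibitors did not move as 1 group. Cdkn1a (ENSMUSG00000023067, chr17:29309936-29319701, plus strand), a p53 target that encodes p21, measured 84.1, 88.4, 70.6 and 70.3 CPM in DMSO RNA and 204, 196, 200 and 202 CPM in LPS RNA. It rose by 1.30 log2 units in RNA (SE 0.121, FDR 1.19e-06) and 1.21 in RIP (SE 0.185, FDR 6.95e-05), and its groups did not overlap in either. Cdkn2c (ENSMUSG00000028551, chr4:109517957-109524386, minus strand) had 12.6, 13.9, 12.7 and 16.0 CPM in DMSO RNA and 3.17, 3.58, 2.15 and 2.79 CPM in LPS RNA. It fell in both assays, with log2 fold changes of -2.30 in RNA (SE 0.345, FDR 0.000102) and -2.23 in RIP (SE 0.273, FDR 7.9e-06). Cdkn1b (ENSMUSG00000003031, chr6:134897364-134902476, plus strand) had 12.6, 13.2, 13.0 and 13.49 CPM in DMSO RNA and 5.08, 11.1, 11.4 and 10.4 CPM in LPS RNA. All LPS libraries were lower, and replicate 1 was far below the other 3. The log2 fold change was -0.52 (SE 0.247, FDR 0.108), called only with the replicate block among the alternatives run (FDR 0.0263). The same held in RIP, at -0.36 (SE 0.186, FDR 0.124; FDR 0.0322 with the block).

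**Figure D2:**
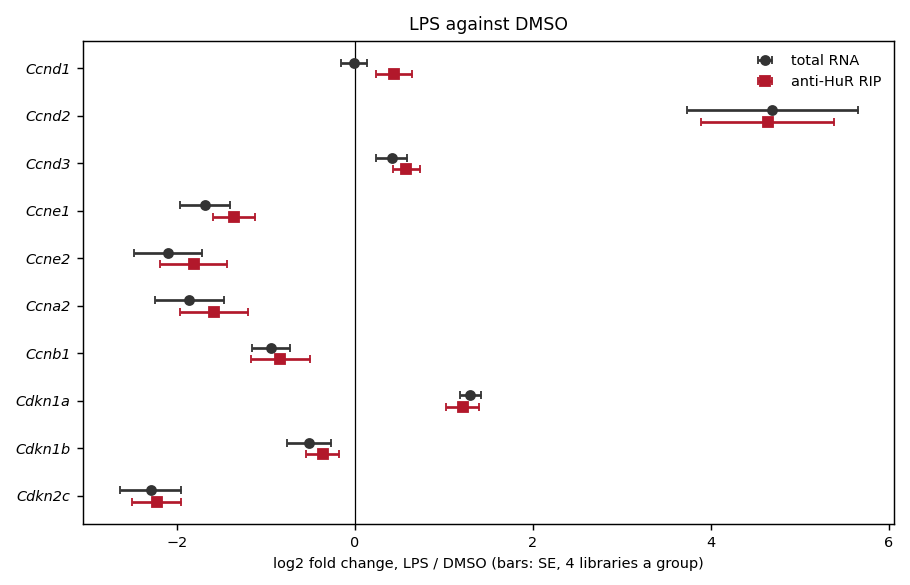
Log2 fold change of LPS against DMSO for each gene in total RNA (circles) and anti-HuR RIP (squares), with bars for the SE from 4 libraries a group. Ccnd2 and Cdkn1a stand to the right of 0 and Ccne1, Ccne2, Ccna2, Ccnb1 and Cdkn2c to the left, by similar amounts in both assays.

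In anti-HuR RIP, 3 of the 10 genes rose with LPS (Ccnd2, Ccnd3 and Cdkn1a) and 4 fell (Ccne1, Ccne2, Ccna2 and Cdkn2c), against 23.5% of 13614 genes called higher and 21.2% lower. Here too, the LPS values of Ccnd1 and Ccnd3 are not independent of the choice of the genes, so the call of Ccnd3 carries that limit. The median log2 fold change was -0.60 over the 10 genes and 0.00 over all genes. With the replicate number as a block all 10 were called, with replicates 1 and 2 alone 6, and with replicates 3 and 4 alone 7. The calls over all genes also moved, from 6090 to 8073 with the block and 3392 with replicates 1 and 2 alone.

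Other cell cycle genes came from lists of 93 genes, of which 85 passed the count filter. In RNA, 16 of the 85 rose with LPS and 42 fell, beside 20.2% of all genes called higher and 21.7% lower. These shares are also the ones to set beside the counts of each list below. All 12 proliferation markers fell, among them Tk1, a thymidine kinase of S phase, by 3.08 log2 units (SE 0.334, FDR 5.18e-06), and Mki67 by 1.94 (SE 0.388, FDR 0.00104). Of 15 genes for retinoblastoma family proteins, E2F factors and their partners, 10 fell and none rose. E2f8 and E2f2 had log2 fold changes of -2.87 (FDR 2.49e-06) and -2.84 (FDR 7.31e-06). Of 18 CDKs and their regulators, 4 rose and 10 fell, including Wee1, the kinase that inhibits CDK1, at -2.31 (FDR 0.000704), and Fbxo31, a ubiquitin ligase subunit, at -2.37 (FDR 3.37e-05). Among 14 other cyclins 3 rose and 3 fell, with Ccnf at -2.16 (FDR 0.000206) and Ccnj at 1.12 (FDR 0.0024). The p53 axis was mixed, with 6 of 15 genes higher and 4 lower. Gadd45a rose by 3.11 log2 units (FDR 1.57e-06), while Sesn1 had a log2 fold change of -2.98 (FDR 3.71e-06). Among 10 genes known to act upstream of D-type cyclins 3 rose and 3 fell. The 3 largest called changes were rises, of Myc by 3.55 log2 units (FDR 0.00403), Fosl1 by 2.83 (FDR 3.6e-05) and Junb by 1.98 (FDR 1.5e-05). Csf1r, the receptor for colony-stimulating factor 1, fell by 1.71 (FDR 0.000188) and was added after its value was seen. In RIP 12 of the 85 listed genes rose and 39 fell, beside 23.5% and 21.2% of all genes.

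The next comparison asked which of these mRNAs anti-HuR recovered. RIP over RNA is a ratio relative to the typical gene and has no absolute scale. Ccnd2, Cdkn2c, Cdkn1b and Ccnd1 were higher in RIP than in RNA in all 3 treatments, and in every alternative run. The other 6 genes had log2 ratios between -0.85 and 0.82. In DMSO the log2 ratios were 4.75 for Ccnd2 (SE 1.03, FDR 0.000231), 4.05 for Cdkn2c (SE 0.316, FDR 2.65e-11), 3.42 for Cdkn1b (SE 0.254, FDR 1.11e-11) and 2.15 for Ccnd1 (SE 0.178, FDR 8.25e-11). From the highest of 14311 genes, they ranked 319, 717, 1338 and 2979. The DMSO ratio and rank of Ccnd2 rest on 28 RNA counts over 4 libraries, with 0 in 1 of them. In LPS they were 4.60, 4.01, 3.45 and 2.48, and in LPS+TM7nox 4.86, 4.10, 3.82 and 2.67.

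Recovery therefore divided genes with related products. Ccnd1 and Ccnd2 were high in RIP while Ccnd3, the third D-type cyclin, had a log2 ratio of -0.08 in DMSO (SE 0.166, FDR 0.70) and -0.02 in LPS (SE 0.165, FDR 0.916). Cdkn1b and Cdkn2c were high while Cdkn1a was at -0.07 in DMSO (SE 0.147, FDR 0.67). The LPS+TM7nox libraries took part in the choice of Ccnd1 and Ccnd3, so their ratios in that treatment are descriptions; Ccnd3 stood at -0.49 there. Cdkn1a was called lower in LPS+TM7nox, at -0.42 (FDR 0.0146). DESeq2 lost that call (FDR 0.189), as did RLE scaling (FDR 0.221). Ccnb1 was lower in RIP in each treatment, at -0.85, -0.85 and -0.75 (FDR 0.0147, 0.0174 and 0.0342), and the last of these was lost with DESeq2 (FDR 0.120). RLE scaling lost its calls in LPS (FDR 0.0538) and LPS+TM7nox (FDR 0.130). With only the groups compared, that in LPS+TM7nox was lost (FDR 0.164). Ccne1 was lower in DMSO, at -0.65 (SE 0.248, FDR 0.0219), a call lost with DESeq2 (FDR 0.0717). Ccna2 was not called in DMSO, at -0.75 (SE 0.396, FDR 0.0957), but was with the replicate block (FDR 0.0101), no count filter (FDR 1.59e-05), only the groups compared (FDR 0.000565) and replicates 3 and 4 alone (FDR 0.00439). With no count filter it was also called in LPS (FDR 0.00704) and LPS+TM7nox (FDR 0.0118). Cdkn1a was called lower in LPS only with the block (FDR 0.0433) or without RIP LPS replicate 4 (FDR 0.0276). Ccne2 was not called in any treatment, with log2 ratios of 0.08, 0.28 and 0.82, but DESeq2 called the last of these (FDR 0.0253). Without RIP LPS replicate 1 its ratio in LPS was -0.37 (FDR 0.408).

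Several of these weaker calls rested on 1 library or pair of replicates. That of Ccnb1 was lost with replicates 1 and 2 alone in DMSO, LPS and LPS+TM7nox (FDR 0.0822, 0.0702 and 0.156). It was also lost in DMSO without RIP replicate 4 (FDR 0.0528), in LPS without RIP replicate 3 (FDR 0.0598), and in LPS+TM7nox without RNA replicate 1 or 2 or RIP replicate 3 or 4 (FDR 0.0569 to 0.156). That of Ccne1 in DMSO was lost without RIP replicate 4 (FDR 0.0504) or RNA replicate 2 (FDR 0.0573). Ccne1 became called in LPS without RIP replicate 1 (FDR 0.0283) or RNA replicate 3 (FDR 0.0428), and in LPS+TM7nox without RNA replicate 3 (FDR 0.0453). Its ratio in LPS+TM7nox, -0.56 (FDR 0.0814), was -1.15 with replicates 1 and 2 alone (FDR 0.0160), 0.04 with replicates 3 and 4 alone (FDR 0.902) and -0.73 with no count filter (FDR 0.0208). In LPS+TM7nox the call of Cdkn1a was lost without RIP replicate 1 or 2 (FDR 0.0908 and 0.0932), and Ccne2 became called without RIP replicate 4 (FDR 0.0419). The ratio of Ccnd2, called throughout, was 5.55 in DMSO without RNA replicate 3, 5.71 with replicates 1 and 2 alone, and 4.20 in LPS+TM7nox without RIP replicate 4.

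In counts, 4 of the 10 genes were higher and 2 lower in RIP in DMSO (all genes: 37.0% and 33.4%), 4 and 1 in LPS (32.9% and 30.8%), and, of the 8 genes other than Ccnd1 and Ccnd3, 3 and 2 in LPS+TM7nox (35.2% and 34.8%). The median log2 ratios of the 10 genes were 0.00, 0.13 and 0.20, beside 0.04, -0.06 and -0.09 over all genes. With the replicate block 7 and 6 of the 10 were called in DMSO and LPS, with replicates 1 and 2 alone 4 and 4, and with replicates 3 and 4 alone 7 and 5. The calls over all genes, 10075 in DMSO and 9109 in LPS, became 7432 and 7057 with replicates 1 and 2 alone. With the block those in LPS became 9867.

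Taking each RIP library against the RNA library of the same number, the ratios were narrowly spread for Ccnd1 and Cdkn1b in DMSO. Ccnd1 ranged from 1.81 to 2.19 log2 units in DMSO, from 2.33 to 2.62 in LPS and from 2.36 to 2.76 in LPS+TM7nox. Its DMSO values lay below the values of both other treatments without overlap. Cdkn1b ranged from 3.21 to 3.41 in DMSO, from 2.97 to 4.09 in LPS and from 3.45 to 4.01 in LPS+TM7nox. Cdkn2c ranged from 3.60 to 4.10, from 3.78 to 4.17 and from 3.09 to 4.95. These ratios were taken after adding 0.1 CPM to both values. For Ccnd2 they ranged from 4.26 to 4.71 in LPS. In LPS+TM7nox they were 4.56, 4.46 and 4.79 in replicates 2, 3 and 4. That of replicate 1, at 6.52, rested on 3 RNA counts. In DMSO, where the RNA libraries held 0 to 17 counts of Ccnd2 and at most 0.557 CPM, the added 0.1 CPM bears on all 4 ratios, and their range of 3.75 to 5.72 is not a measure of recovery.

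**Figure D3:**
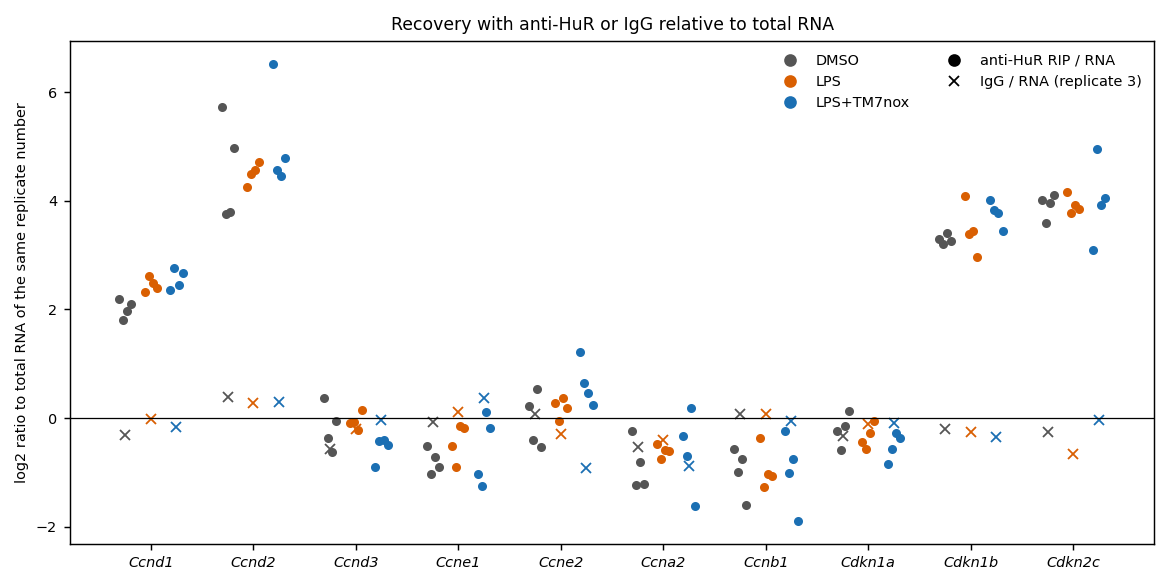
Log2 ratio of anti-HuR RIP to total RNA of the same replicate number (points, 4 per treatment) and of IgG to total RNA in replicate 3 (crosses), for each gene. Ccnd1, Ccnd2, Cdkn1b and Cdkn2c have points from 1.81 upwards and crosses at IgG over RNA ratios of 0.631 to 1.31, and all points of the other 6 genes lie lower than these 4 genes' points.

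IgG recovered these mRNAs about in proportion to their RNA level. In replicate 3, the 1 number with an IgG library, IgG over RNA was between 0.529 and 1.31 for all 10 genes in all treatments. Over the same-treatment IgG library, RIP of replicate 3 was 4.82, 5.67 and 6.11 times as high for Ccnd1 in DMSO, LPS and LPS+TM7nox, and 12.4, 19.7 and 18.2 times for Ccnd2. For Cdkn1b it was 12.3, 13.1 and 17.5 times as high, and for Cdkn2c 18.7, 25.2 and 17.0 times. For Ccnd3 these ratios were 0.965, 0.988 and 0.769. Over the 15 RIP and IgG libraries with treatment as a covariate, 5 of the 10 genes were higher with anti-HuR and none lower, against 33.8% of 14973 genes higher and 34.2% lower. They were Cdkn2c at 4.69 log2 units (FDR 4.55e-10), Ccnd2 at 3.60 (FDR 0.000191), Cdkn1b at 3.57 (FDR 5.48e-11), Ccnd1 at 2.48 (FDR 4.53e-09) and Ccne2 at 0.90 (FDR 0.0439). This test takes in the LPS and LPS+TM7nox libraries, so the value of Ccnd1 is not independent of its choice. The call of Ccne2 was lost with the replicate block (FDR 0.105) and without the IgG library of LPS (FDR 0.256) or LPS+TM7nox (FDR 0.175), and without replicate 1 of RIP in DMSO (FDR 0.0506) or LPS+TM7nox (FDR 0.0546). Without the DMSO IgG library it was at 1.54. Ccnb1, at -0.61 (FDR 0.0606), was called lower with the block (FDR 0.00089), with no count filter (FDR 0.0299) and without replicate 1 of RIP in LPS (FDR 0.0256) or LPS+TM7nox (FDR 0.0149). Within replicate 3 alone the same 5 were called higher, and Ccne1 at -0.41 (FDR 0.0474) and Ccnb1 at -0.88 (FDR 0.000115) were called lower.

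For 9 of the genes, all but Ccnd2, the 30 bases richest in U were located in the 3′ UTR of the main coding transcript in GENCODE M39 (GRCm39), and 5 of them are printed as examples from recovered genes and others. They are written 5′ to 3′ on the gene's strand with T for U, and capitals mark runs of 5 or more T and the pentamer ATTTA. The first 3 belong to genes recovered with anti-HuR in every treatment, and the last 2 to Ccnb1 and Ccnd3, which were not.
Cdkn1b: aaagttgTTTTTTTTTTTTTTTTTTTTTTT
Cdkn2c: ttttatctttgaTTTTTTTTTTctttgctt
Ccnd1: ttttgttctctttgttggttgTTTTTcctt
Ccnb1: tatcTTTTTTTatgtaattATTTAtttgtt
Ccnd3: ggtgccgtggtcattttaATTTAttgcttt

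These stretches lie at chr6:134902069-134902098 (Cdkn1b), chr4:109518175-109518204 (Cdkn2c), chr7:144486199-144486228 (Ccnd1), chr13:100915750-100915779 (Ccnb1) and chr17:47910253-47910282 (Ccnd3), all within the annotated 3′ UTR. They hold 25, 23, 21, 21 and 15 U among 30 bases, so Ccnd1, which was recovered, and Ccnb1, which was not, have the same number, and the run in capitals is the longer one in Ccnb1. Of 10980 coding genes tested, 655 had a richer stretch than Cdkn1b, 1487 than Cdkn2c, 2705 than Ccnd1 and Ccnb1, and 8620 than Ccnd3. Ccne2, Ccna2 and Cdkn1a reached 19 U, and Ccne1 reached 15. The longest run of U anywhere in the 3′ UTR was 23 in Cdkn1b, 10 in Ccnd1 and Cdkn2c, 7 in Ccnb1, and 4 or 5 in the other 5 genes.

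Across all coding genes tested, recovery in DMSO differed along the same scale. The median log2 RIP over RNA was -0.79 for the 5338 genes whose richest stretch held at most 18 U and -0.08 for the 2136 genes with 19 or 20. It was 0.74 for the 1478 genes with 21 or 22, 1.58 for the 992 genes with 23 or 24, and 2.57 for the 1036 genes with 25 or more. The median 3′ UTR length also differed, from 676 bases in the lowest class to 2715 in the highest, and its part in the result was not tested. The 3′ UTR of Cdkn2c is 489 bases long and that of Cdkn1b 3439. Ccnb1 lay below the lower quartile of -0.25 of its class, and Ccnd1, in the same class, lay at 2.15, above its upper quartile of 1.74. Cdkn2c lay above the upper quartile of 2.69 of its own class.

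Counts of ATTTA, the core of AU-rich elements, gave another order. Cdkn1b held 10, Ccne2 7, Ccnd1 5, Ccnb1 and Cdkn1a 4 each, Ccnd2 2, Ccnd3, Ccna2 and Cdkn2c 1 each, and Ccne1 none. Of the coding genes, 73.5% held at least 1. The longer TATTTAT, which contains ATTTA, was present 3 times in Cdkn1b and 1 time in Ccnd1, Ccne2, Ccna2 and Ccnb1, and in 32.7% of coding genes. Both motifs were searched on the transcribed strand only. A match is a description of the letters and does not show that HuR binds there.

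**Figure D4:**
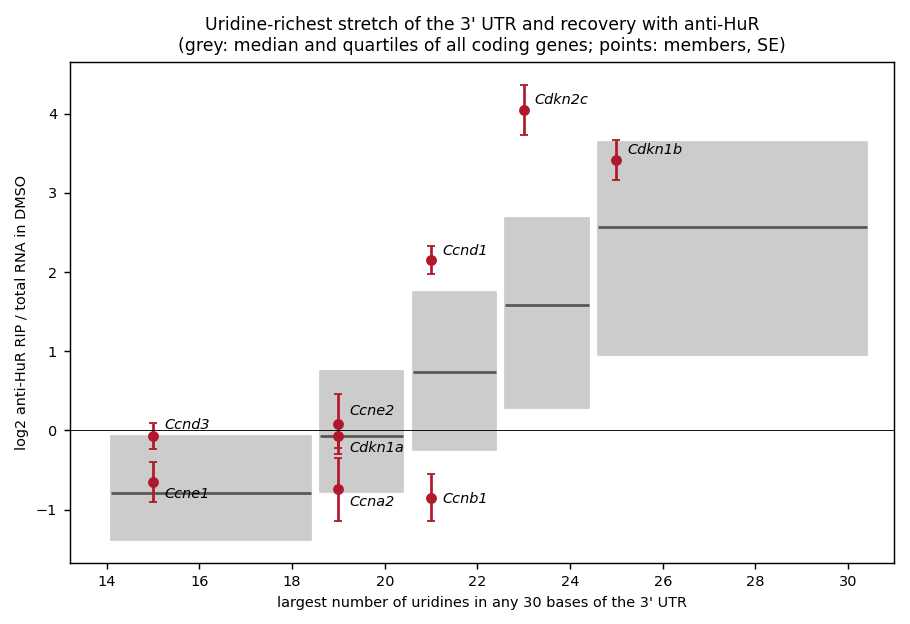
Log2 anti-HuR RIP over total RNA in DMSO against the largest number of uridines in any 30 bases of the 3′ UTR; grey boxes give the median and quartiles of all coding genes tested in each class, and points 9 of the genes with SE. Cdkn1b and Cdkn2c, with 25 and 23 uridines, stand above 3 log2 units, and Ccnd1 and Ccnb1, with 21 each, stand apart at 2.15 and -0.85.

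No change of recovery by LPS passed the test for any of the 10 genes. The change of log2 RIP over RNA by LPS ranged from -0.21 for Cdkn1a (SE 0.208, FDR 0.889) to 0.33 for Ccnd1 (SE 0.241, FDR 0.838). No gene among the 10 was called by edgeR or DESeq2, and none had an unadjusted p under 0.05 in either. Of all 14311 genes, 0.0140% were called with a higher ratio and 0.0280% with a lower ratio, 6 genes in all, and DESeq2 called 67. For Ccnd2 the change was -0.15 with an SE of 1.13, so a 2-fold change lay within 1 SE. It was -0.96 without RNA DMSO replicate 3, -1.27 with replicates 1 and 2 alone and -0.63 with the replicate block.

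The last comparison asked how the 10 mRNAs stood when TM7nox was given with LPS. All 7 cyclins had lower mean levels than with LPS alone, in RNA and in RIP, while Cdkn1a and Cdkn1b had nearly the same mean level in RNA. This contrast chose the genes, so the values below are descriptions. In RNA 5 genes had all LPS+TM7nox libraries below all LPS libraries (Ccnd1, Ccnd3, Ccne1, Ccne2 and Ccnb1), as had 10.3% of all genes in that fit. In RIP 3 genes did (Ccnd1, Ccnd3 and Ccne1), beside 9.70% of all genes. Each of the 7 cyclins was lower in the LPS+TM7nox library than in the LPS library of the same number, in 4 of 4 pairs in RNA and in RIP, as were 25.0% of all genes in RNA and 26.9% in RIP. By FDR, 7.37% of all genes were higher and 6.40% lower in RNA, and 8.64% and 7.61% in RIP. The median log2 fold change of the 10 genes was -1.28 in RNA and -1.07 in RIP, beside 0.00 and -0.03 over all genes.

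Ccnd1 measured 44.5, 49.7, 47.8 and 50.1 CPM in LPS+TM7nox RNA, below every library of both other treatments, and the 4 values were close together. The log2 fold change against LPS was -2.03 (SE 0.157). In RIP it measured 228, 336, 262 and 321 CPM, at -1.84 (SE 0.206). The single IgG library showed the same order, with 208 CPM in LPS and 42.9 CPM in LPS+TM7nox. With replicates 1 and 2 alone the RNA value was -2.08, and with replicates 3 and 4 alone -1.97.

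Ccnd3 measured 20.2, 17.2, 13.99 and 12.2 CPM in LPS+TM7nox RNA, again below all DMSO and LPS libraries, for a log2 fold change against LPS of -1.75 (SE 0.178). With replicates 1 and 2 alone it was -1.53, and with replicates 3 and 4 alone -2.01. In RIP the libraries measured 10.8, 12.7, 10.5 and 8.65 CPM, at -2.25 (SE 0.163). Its RIP over RNA moved by -0.46 (SE 0.238) between LPS and LPS+TM7nox, and the same-numbered ratios of the treatments did not overlap. Ccnd2 measured 0.146, 1.81, 4.60 and 6.28 CPM in LPS+TM7nox RNA. Its range overlapped that of LPS, and the log2 fold change was -1.18 (SE 0.736) in RNA and -0.91 (SE 0.639) in RIP. Without RIP LPS+TM7nox replicate 4, the highest of its group, the value in RIP was -1.67. In RNA it was -1.85 with replicates 1 and 2 alone and -1.01 with replicates 3 and 4 alone.

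Ccne1 measured 3.75, 4.45, 2.30 and 2.58 CPM in LPS+TM7nox RNA, at -1.59 (SE 0.290) against LPS. Ccne2 measured 1.41, 2.07, 1.60 and 0.818 CPM, at -1.76 (SE 0.407) in RNA, with -2.07 in replicates 1 and 2 alone and -1.11 in replicates 3 and 4 alone. In RIP Ccne1 was at -1.72 (SE 0.255) and Ccne2 at -1.22 (SE 0.401), but Ccne2 was at -0.54 there without RIP LPS replicate 1. In RIP the value of Ccne1 was -2.18 with replicates 1 and 2 alone and -1.19 with replicates 3 and 4 alone. Both E-type cyclins were thus lower with LPS than with DMSO and lower again in LPS+TM7nox, where Ccne2 in RNA stood at -3.87 (SE 0.423) against DMSO and Ccne1 at -3.27 (SE 0.302). The LPS+TM7nox libraries are shared by these contrasts.

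Ccna2 measured 17.3, 18.3, 4.70 and 6.97 CPM in LPS+TM7nox RNA, where replicates 1 and 2 were well above replicates 3 and 4, as they were in LPS. The ranges of these treatments overlapped. The log2 fold change was -1.38 (SE 0.390) in RNA and -1.30 (SE 0.390) in RIP. Ccnb1 measured 17.8, 22.8, 11.2 and 12.7 CPM, at -0.90 (SE 0.215) in RNA and -0.83 (SE 0.340) in RIP, where replicates 3 and 4 alone gave -1.28 and replicates 1 and 2 alone -0.56.

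Among the inhibitors, Cdkn1a measured 239, 197, 211 and 204 CPM in LPS+TM7nox RNA, overlapping LPS, at 0.09 (SE 0.118) in RNA and -0.06 (SE 0.182) in RIP. Cdkn1b measured 5.55, 10.1, 11.6 and 11.4 CPM in RNA, at 0.03 (SE 0.245), with replicate 1 low as in LPS. In RIP it was at 0.38 (SE 0.187), with overlapping libraries. Cdkn2c measured 4.19, 1.43, 1.13 and 1.59 CPM, at -0.50 (SE 0.350) in RNA and -0.47 (SE 0.264) in RIP, and its libraries overlapped with LPS in both. Without the LPS+TM7nox replicate 1 of RNA its value in RNA was -1.09, and with replicates 3 and 4 alone -0.87. Of 4 same-numbered pairs, Cdkn1a was lower in LPS+TM7nox than in LPS in 0 in RNA and 3 in RIP. For Cdkn1b these counts were 1 and 0, and for Cdkn2c 3 and 4.

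**Figure D5:**
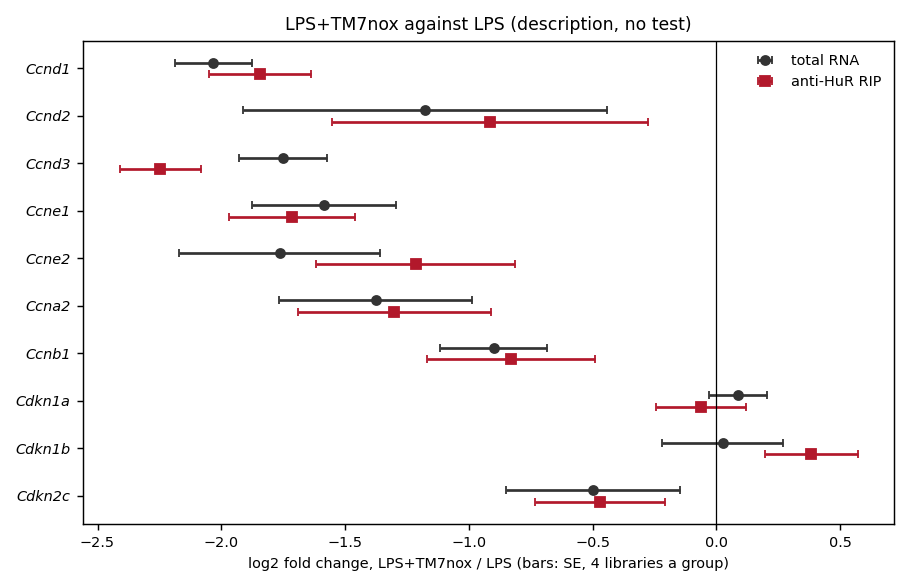
Log2 fold change of LPS+TM7nox against LPS for each gene in total RNA (circles) and anti-HuR RIP (squares), with bars for the SE from 4 libraries a group; values are a description. The 7 cyclins lie between -2.25 and -0.83, and Cdkn1a and Cdkn1b between -0.06 and 0.38.

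Between LPS and LPS+TM7nox, the log2 RIP over RNA of the 4 genes recovered with anti-HuR changed by 0.20 for Ccnd1 (SE 0.241), 0.26 for Ccnd2 (SE 1.00), 0.37 for Cdkn1b (SE 0.329) and 0.09 for Cdkn2c (SE 0.421). Without RIP LPS+TM7nox replicate 4 the change of Ccnd2 was -0.44. The values of the other genes ran from -0.46 for Ccnd3 to 0.54 for Ccne2 (SE 0.592). That of Ccne2 was 1.24 without RIP LPS replicate 1 and 0.05 without RNA LPS replicate 1.

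The listed cell cycle genes outside the 10 were tested in the same contrast, although the lists too were drawn up with earlier results of these data known. In RNA, 5 of 85 rose and 17 fell when TM7nox was added to LPS, beside 7.37% and 6.40% of all genes. In RIP 9 rose and 14 fell, beside 8.64% and 7.61%. In RNA the called genes numbered 37 with the replicate block, 3 with replicates 1 and 2 alone and 41 with replicates 3 and 4 alone. In RIP they numbered 46 with the block, 10 and 15 with these pairs of replicates, and 13 without RIP LPS replicate 1. E2f7 and E2f8, E2F factors that act as repressors, fell by 2.33 (SE 0.473, FDR 0.00466) and 1.39 log2 units (SE 0.293, FDR 0.00605), and E2f6 rose by 1.05 (SE 0.128, FDR 0.000116). Cdc6, a replication licensing factor, fell by 1.76 (SE 0.307, FDR 0.00164), and Cdk1 by 1.07 (SE 0.218, FDR 0.00488). Of the 12 proliferation markers 3 fell in RNA and 9 were not called. Of 14 other cyclins, Ccnj alone was called, with a log2 fold change of -1.51 (SE 0.248, FDR 0.00109). In the p53 axis, Plk2 rose by 2.36 (SE 0.429, FDR 0.00215) and Sesn2 by 1.10 (SE 0.270, FDR 0.0146), while Btg2 fell by 0.76 (SE 0.189, FDR 0.0151), so 3 of 15 rose and 3 fell. Among genes upstream of D-type cyclins, Fos and Egr1 fell by 1.27 (FDR 0.0229) and 1.16 log2 units (FDR 0.00527), and Jun rose by 0.85 (FDR 0.0117).

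Some genes followed the pattern of a cyclin or inhibitor closely over the 12 RNA libraries, which share 3 treatments. By Pearson's r of log2 CPM among 8276 genes, given as a description, those most like Ccnd1 were Klf16 (r = 0.974), Myo19 (0.961) and Snrpd1 (0.953). Those most like Ccnd3 were Dram1 (0.949), Olfm1 (0.944) and Camkk2 (0.936). Those most like Cdkn1a were Abtb2 (0.993), Lgals8 (0.993) and Cpd (0.991).

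The annotation places other genes across most of the 10 on the opposite strand. LTO1 overlaps Ccnd1, 1600014C10Rik overlaps Ccne1, Ints8 overlaps Ccne2 and Exosc9 overlaps Ccna2. Dino and Gm64878 overlap Cdkn1a, Gm44238 overlaps Cdkn1b, and Gm57073 and Gm68465 overlap Cdkn2c. Reads from such pairs cannot be told apart if the counting ignored strand.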

How the data were processed

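The authors deposited 1 table of raw counts per gene for 27 libraries. Per the submitters' processing notes, FastQC 0.11.9, STAR, HTSeq and DESeq2 were used with GRCm39; the sources used here do not give their settings, the annotation release or whether counting used strand. Per the labels' protocols, about 30 M cells (M for 1000000) were lysed per sample and libraries came from the SMART-Seq Stranded kit. Reads carry no stated molecular identifiers, so PCR copies count separately.

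The tests were run in R 4.3.3 with edgeR 4.0.16 (quasi-likelihood F test, two-sided, TMM scaling, filterByExpr with a minimum count of 10) and Benjamini-Hochberg adjustment over all genes tested. The 12 RNA and the 12 RIP libraries were fitted separately for treatments. RIP over RNA and its change came from 1 fit of 24 libraries, and anti-HuR against IgG from 15 with treatment as covariate. SE is the absolute log2 fold change divided by the square root of F. The scripts were tested on simulated counts. The alternatives were DESeq2 1.42.0, RLE scaling, no count filter, a replicate block, replicates 1 and 2 or 3 and 4 alone, only the groups compared, and each library left out.

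The 10 genes, the lists and the tests were chosen with earlier results of these data known. All 10 genes are named. From each list the rule took, per comparison, up to 3 called genes with the largest change; Csf1r was added after its value was seen. No pair of replicates agreed within sampling noise. Same-numbered libraries deviated together in every pair of groups compared here, with correlations of 0.143 to 0.364 in RNA and 0.216 to 0.506 in RIP. Between RNA and RIP of 1 treatment they were 0.209 to 0.406. Between RNA of DMSO and of LPS, libraries of different numbers reached 0.192, above the lowest same-number value of 0.143. The labels give the numbers without naming a shared day or batch. They were used to pair libraries in the same-numbered ratios and comparisons. The main tests left this pairing out, and only the replicate block among the alternatives used it. Between RNA of DMSO and RIP of LPS or LPS+TM7nox, which are not compared with each other, the lowest correlations were 0.061 and 0.005. 3′ UTRs of at least 50 bases came from GENCODE M39 transcripts. The U-rich stretch of Ccnd2 is not reported here.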

Additional observations from a re-analysis of the deposited data

Results flagged for a closer look

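In 60 groups of 4 libraries (10 genes, RNA and RIP, 3 treatments), 4 had 1 library far from the other 3, by a gap above Dixon's 95% critical value; chance gives about 1 such group in 20. Ccne1 stood at 22.5 CPM in RIP DMSO replicate 1, where the other 3 lay between 15.8 and 16.3 CPM. Ccne2 was at 12.02 CPM in RIP LPS replicate 1, against 3.25 to 4.72 CPM. Cdkn1b was at 5.08 CPM in RNA LPS replicate 1, against 10.4 to 11.4 CPM. Cdkn2c was at 4.19 CPM in RNA LPS+TM7nox replicate 1, against 1.13 to 1.59 CPM. All 4 were replicate 1 of their group.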

How the results depend on the processing

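In 1180 alternatives of the 70 tested values of the 10 genes, 1103 kept their side of the threshold, 37 lost the call and 40 gained it. These totals include the RIP over RNA ratios of Ccnd1 and Ccnd3 in LPS+TM7nox, treated above as descriptions. That of Ccnd3 gave 5 of the lost calls. No called value changed sign, but values that were not called did in 76 alternatives, such as Ccne1 RIP over RNA in LPS+TM7nox (-0.56; 0.04 with replicates 3 and 4 alone, but -1.15 and called with replicates 1 and 2 alone) and Ccna2 anti-HuR against IgG (0.41 to -0.10 with the block). The number of the 10 genes called stayed within 1.5 times in every comparison. The listed genes called in LPS+TM7nox against LPS depended on the libraries. In RNA the 22 became 37 with the replicate block, 3 with replicates 1 and 2 alone and 41 with replicates 3 and 4 alone, and 17 to 25 with 1 library left out. In RIP the 23 became 46 with the block, 10 with replicates 1 and 2 alone and 15 with replicates 3 and 4 alone, and 13 (without RIP LPS replicate 1; 15 without RIP LPS+TM7nox replicate 4) to 28 with 1 library left out. The cause was not tested; the pairs of replicates hold fewer samples. Over all genes, the 5190 called for LPS in RNA became 1668 with replicates 1 and 2 alone. The 6090 in RIP became 3392 with them. For LPS+TM7nox against LPS, 1704 in RNA became 168 with replicates 1 and 2 alone and 3489 with replicates 3 and 4 alone, and 2212 in RIP became 789 with replicates 1 and 2 alone and 4577 with the block. The 6 genes whose recovery changed by LPS (2 higher, 4 lower) became 67 with DESeq2 (35 higher, 32 lower) and 50 with the block (17 higher, 33 lower). DESeq2 and RLE scaling raised the median log2 RIP over RNA of all genes by 0.16 to 0.22, and anti-HuR over IgG by 0.13. The block changed no call of the 10 genes other than those given above. Counts under 20 in a library limit Ccnd2 in RNA of DMSO and of LPS+TM7nox, Ccne2 in LPS+TM7nox (RNA, RIP and IgG) and Cdkn2c in the LPS+TM7nox IgG library.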

Other observations

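The listed cell cycle genes outside the 10 stood on both sides in recovery with anti-HuR in DMSO, as did all genes, of which 37.0% were called higher and 33.4% lower. Of 14 other cyclins, 7 were higher in RIP than in RNA and 4 lower. Ccni stood at 4.51 log2 units (SE 0.212, FDR 2.89e-15), Ccnj at 3.93 (SE 0.250, FDR 6.1e-13) and Ccnc, a subunit of the Mediator kinase module, at 3.91 (SE 0.305, FDR 2.63e-11). Of 18 kinases and regulators 7 were higher and 7 lower, with Cdk6, a partner of D-type cyclins, at 3.85 (SE 0.235, FDR 2.87e-13) and Cdk2 at 3.18 (SE 0.205, FDR 7.24e-13). Of 15 retinoblastoma and E2F genes 7 were higher and 2 lower, with Tfdp1, the dimer partner of E2F factors, at 4.16 (SE 0.316, FDR 1.66e-11).

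None of the 12 proliferation markers was higher in RIP and 10 were lower, with Mcm6 at -2.03 (SE 0.207, FDR 3.81e-09), Mcm3 at -1.99 (SE 0.171, FDR 1.7e-10) and Pcna at -1.90 (SE 0.162, FDR 1.42e-10). In the p53 axis 8 of 15 were higher and 2 lower, with Mdm4, an inhibitor of p53, at 3.67 (SE 0.232, FDR 5.34e-13). These values were computed with the same edgeR test, and differences between the lists were not tested.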
